A study of Mus musculus with 15 samples.

Results

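The general pluripotency factors followed here are 8 genes, Pou5f1, Sox2, Nanog, Sall4, Utf1, Dppa2, Dppa4 and Lin28a, taken by gene symbol from the 23412 genes listed in the count files. Each of the 8 symbols was found once in every library, and all 8 passed the filter on low counts. The libraries were polyA RNA-seq of v6.5 cells, a male line of mouse embryonic stem cells (mESCs) grown on gelatin. In them the cohesin subunits STAG1 and STAG2 were depleted singly or together, STAG2 by knockout and STAG1 by knockout or siRNA. There were 15 libraries, 3 replicates in each of 5 conditions. Every culture was transfected with 50 nM of either siGLO, a transfection control, or siStag1, an siRNA against Stag1, and harvested after 48 h. Wild-type cells received siGLO (WT siGLO) or siStag1 (WT siStag1), Stag1-/- cells received siGLO (Stag1-KO siGLO), and Stag2-/- cells received siGLO (Stag2-KO siGLO) or siStag1 (Stag2-KO siStag1). Each knockout genotype is 1 CRISPR clone, so a difference from WT cannot be told apart from a difference between clones. No source says that replicates came from separate derivations, so the p-values below measure the spread between these cultures only.

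OCT4, the product of Pou5f1, and SOX2 are transcription factors that bind DNA as a pair at neighbouring sites and, together with NANOG, hold embryonic stem cells in the undifferentiated state. Unlike the naive factors such as KLF4 and ESRRB, which are lost as the epiblast matures, OCT4, SOX2 and LIN28A are carried into later epiblast cells, while NANOG is known to fluctuate between single mESCs. SALL4 is a zinc finger factor that works with OCT4 and NANOG, UTF1 is a chromatin-bound factor of undifferentiated cells, DPPA2 and DPPA4 form a complex that primes chromatin, and LIN28A is an RNA-binding protein best known for blocking maturation of the let-7 microRNAs.

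Total counts on genes were 14982560 to 19070126 per library. Values below are normalized counts, that is counts scaled by TMM to a common library depth of 17373740. Stag2 had 2324 to 2330 normalized counts in WT siGLO and 662 to 738 in Stag2-KO siGLO, and Stag1 had 2008 to 2283 in WT siGLO, 352 to 516 in WT siStag1 and 628 to 780 in Stag2-KO siStag1. The Stag1-/- clone carries an in-frame deletion, and its Stag1 level of 1822 to 2364 overlapped WT, so the count does not check that label. The 8 factors, which mark mESCs, together had 48769 to 71278 normalized counts per library over all conditions. In contrast, 10 fibroblast genes, markers of feeder cells, summed to 1086 to 1914. The 11 naive pluripotency genes, also markers of mESCs, summed to 36790 to 41599 in WT siGLO and 7914 to 8179 in Stag2-KO siStag1.

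RefSeq promoters of GRCm38.p6, each holding 250 bases before and 50 after the transcription start, were given for 5 of the 8 genes, namely Pou5f1, Sox2, Nanog, Utf1 and Lin28a. The promoters of Nanog and Sox2 are shown because these are the 2 factors that fell in Stag2-KO siStag1 against both siGLO controls. Capitals mark, on either strand, the octamer core ATGCAAA, which OCT4 is known to bind, and the 9-letter core GCATNACAA of the joint OCT4 and SOX2 element; the 2 overlap where both occur.
Nanog promoter, chr6:122707239-122707538, plus strand: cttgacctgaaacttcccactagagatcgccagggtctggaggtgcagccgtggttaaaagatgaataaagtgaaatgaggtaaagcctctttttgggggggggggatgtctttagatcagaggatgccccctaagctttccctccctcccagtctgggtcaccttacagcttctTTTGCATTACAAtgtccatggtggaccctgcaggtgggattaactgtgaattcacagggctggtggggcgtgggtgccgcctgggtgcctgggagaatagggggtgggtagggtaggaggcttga
Sox2 promoter, chr3:34649745-34650044, plus strand: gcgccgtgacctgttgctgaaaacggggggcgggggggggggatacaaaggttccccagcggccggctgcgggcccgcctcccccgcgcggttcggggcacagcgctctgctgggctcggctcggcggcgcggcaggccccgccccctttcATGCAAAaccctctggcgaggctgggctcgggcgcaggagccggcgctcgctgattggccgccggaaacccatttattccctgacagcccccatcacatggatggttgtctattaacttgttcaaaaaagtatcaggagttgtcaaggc
The Nanog promoter held the joint core from base -72 and an octamer core from base -75 relative to the start. Relative to another Nanog start that was given, at 122707565, they began at bases -148 and -151. The Sox2 promoter held an octamer core from base -99 and no joint core. The RefSeq start used for Sox2 lies 410 bases upstream of the GENCODE start of the gene given below, so this window ends before that start. Over 32851 promoters of the same 300 bases, 0.731% held the joint core and 4.63% the octamer core. Neither was found in the windows given for Pou5f1, Utf1 or Lin28a. The SOX core ACAATG, also searched, was in the Nanog window shown (from base -67), in that of Lin28a (-96) and in that of the downstream Pou5f1 start (-158). It was not found for Sox2 or Utf1, and 12.6% of the promoters held it.

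The comparisons asked how the 8 factors differed from WT when 1 STAG protein was missing, when both were depleted, and between the 2 knockouts. The largest change was that of Nanog in the doubly depleted cells, 3.04-fold lower, and the next largest from WT siGLO was that of Lin28a in the same cells, 1.67-fold higher. In Stag1-KO siGLO, 1 of 8 factors rose (Lin28a) and 1 fell (Pou5f1) at an adjusted p under 0.1 (edgeR quasi-likelihood test, Benjamini-Hochberg), where 20.0% of 14508 genes tested were called, 10.1% higher and 9.93% lower. Stag2-KO siGLO had 2 of 8 higher (Lin28a and Sall4) and 0 lower, beside 28.3% of all genes, 13.9% higher and 14.4% lower. In Stag2-KO siStag1, 3 of 8 fell (Nanog, Sox2 and Pou5f1) and 2 rose (Lin28a and Sall4) against WT siGLO, beside 43.9% of all genes, 21.3% lower and 22.6% higher. These 3 comparisons share the WT siGLO libraries. The 2 of 8 called in each knockout was near the share of all genes, and the 5 of 8 in Stag2-KO siStag1 was above it, a difference that was not tested. That count was 3 of 8, beside 5208 of 14508 genes, at an adjusted p under 0.05, and also 3 of 8 without WT siGLO replicate 2 or Stag2-KO siStag1 replicate 3.

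**Figure D1:**
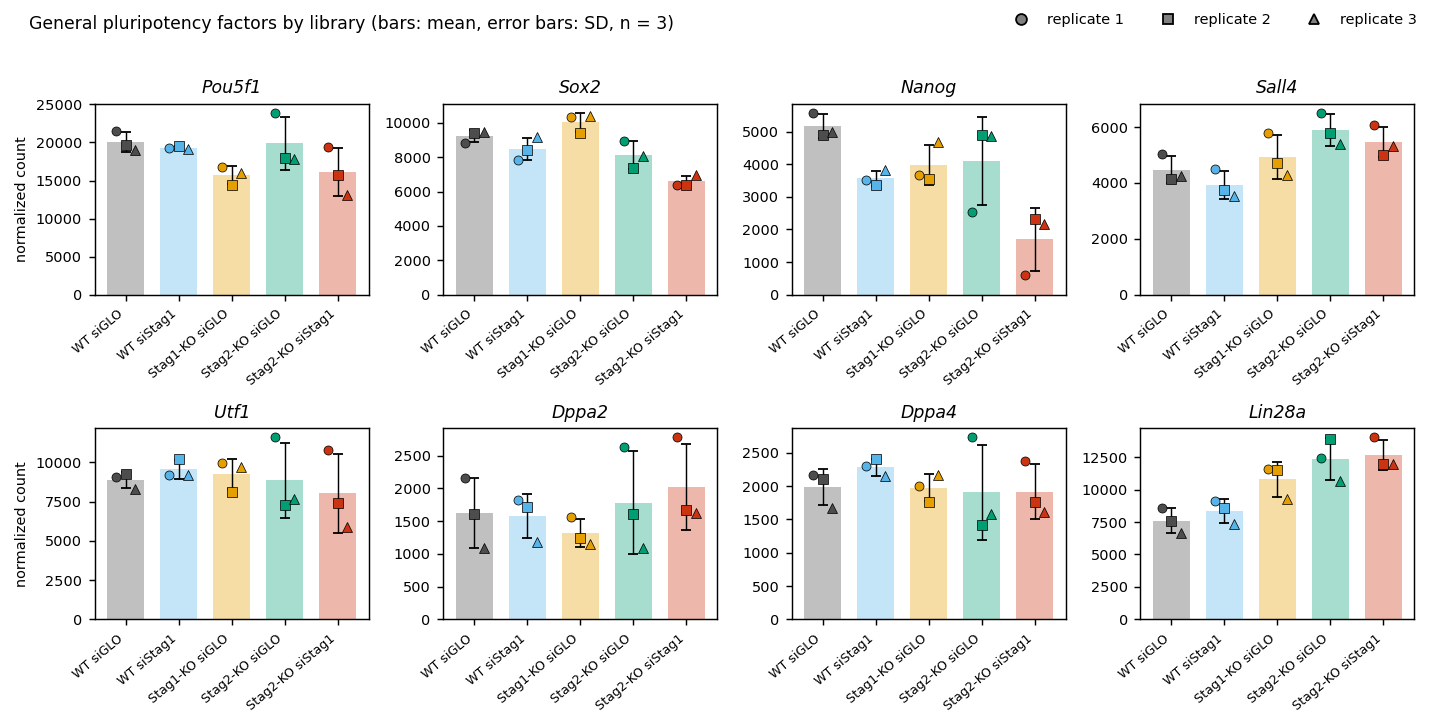
Normalized counts (y axis, linear from 0) of the 8 factors in the 5 conditions (x axis), with bars for the mean, error bars for the SD of 3 replicates and a marker shape for each replicate number. Nanog sat at 586 to 2338 in Stag2-KO siStag1 and at 4917 to 5589 in WT siGLO, and Lin28a was higher in the 3 knockout conditions than in both WT conditions.

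siStag1 in WT cells called 0 of 8 factors by edgeR and by DESeq2, and 0 at an unadjusted p under 0.05. Of all genes, edgeR called 0.248%, 0.103% higher and 0.145% lower, and DESeq2 called 133 of 14203. siStag1 in Stag2-/- cells, Stag2-KO siStag1 against Stag2-KO siGLO, called 2 of 8, Nanog and Sox2, both lower, beside 6.37% of all genes, 3.39% lower and 2.98% higher. Whether siStag1 acted differently on a factor in Stag2-/- than in WT cells was tested as an interaction. This called 0 of 8 by either tool and 0 at an unadjusted p under 0.05. Of all genes, edgeR called 0.159%, 0.138% lower and 0.0207% higher, and DESeq2 called 102 of 14203. siStag1 left Stag1 at 0.206 of its siGLO level in WT cells and at 0.345 in Stag2-/- cells. That log2 difference was 0.75 (95% interval 0.35 to 1.15, edgeR interaction test, adjusted p = 0.254), so the interaction sets knockdowns of unlike measured depth side by side. Between the clones, Stag1-KO siGLO had 1 factor higher (Sox2) and 1 lower (Pou5f1) than Stag2-KO siGLO, beside 25.7% of all genes, 12.7% higher and 12.9% lower. Blocked by replicate number, this became 5 of 8, beside 37.3% of all genes, as Sall4 (adjusted p = 0.00495), Dppa2 (0.0462) and Lin28a (0.0539) were then also lower in Stag1-KO siGLO.

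**Figure D2:**
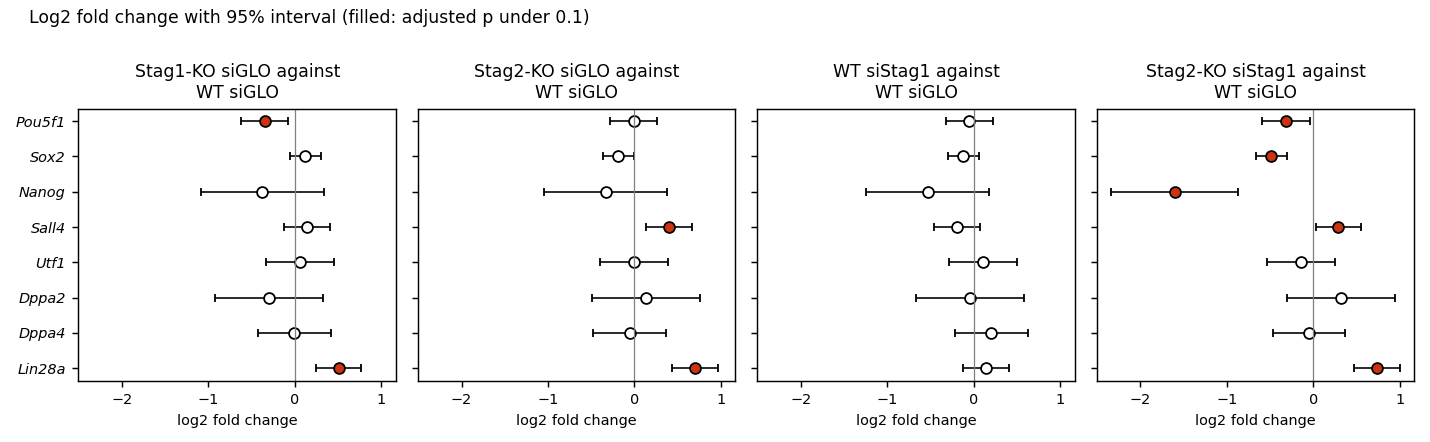
Log2 fold change of the 8 factors (y axis) against WT siGLO in 4 comparisons (x axis, log2 scale), with 95% intervals from the fit and filled points for an adjusted p under 0.1. The interval of Nanog is the widest for each condition, from -2.34 to -0.87 in Stag2-KO siStag1, and that of Sox2 the narrowest.

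Nanog (mm10 chromosome 6, 122707489 to 122714633, plus strand) encodes the homeodomain factor that stabilises the undifferentiated state. Nanog had 5589, 4917 and 5004 normalized counts in the WT siGLO replicates and 586, 2338 and 2177 in Stag2-KO siStag1. The 2 groups did not overlap, and replicate 1 of the depleted cells was the lowest of all 15 libraries. The log2 fold change was -1.61 (SE 0.35, adjusted p = 0.00187), and without Stag2-KO siStag1 replicate 1 it was -1.20 (adjusted p = 0.000325).

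Against its own control the fall of Nanog was of like size. Stag2-KO siGLO held 2535, 4903 and 4875 normalized counts of Nanog, so the library numbered 1 was again the low one, and still above the highest Stag2-KO siStag1 library. The log2 fold change of siStag1 in Stag2-/- cells was -1.27 (SE 0.34, adjusted p = 0.050), which became 0.144 without Stag2-KO siGLO replicate 2, 0.130 without replicate 3, and 0.310 with only these 6 libraries in the fit. Without Stag2-KO siStag1 replicate 1 the value was -0.86 (adjusted p = 0.0220).

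In the single depletions every Nanog value lay under the lowest WT siGLO library, but the differences did not pass the test. WT siStag1 had 3530, 3366 and 3815 normalized counts of Nanog and Stag1-KO siGLO had 3689, 3561 and 4687. The log2 fold changes were -0.53 (SE 0.34, adjusted p = 0.955) for WT siStag1, -0.38 (SE 0.34, adjusted p = 0.513) for Stag1-KO siGLO and -0.33 (SE 0.34, adjusted p = 0.518) for Stag2-KO siGLO, and the 2 knockouts differed by -0.045 (adjusted p = 0.945). The fit over all 15 libraries gives a gene 1 spread for all conditions, and the spread of Nanog was widest in the Stag2-/- cells. With only the 6 libraries compared, Nanog was called in WT siStag1 (log2 fold change -0.53, adjusted p = 0.0264) and in Stag1-KO siGLO (-0.38, adjusted p = 0.0414). Of all genes, these fits called 126 of 13869 and 2832 of 13841. The siStag1 effect on Nanog in Stag2-/- cells minus that in WT cells was -0.74 on the log2 scale, with a 95% interval from -1.75 to 0.27 (SE 0.48, adjusted p = 0.945). For the other factors this difference was -0.25 for Pou5f1, -0.18 for Sox2, 0.083 for Sall4, -0.25 for Utf1, 0.23 for Dppa2, -0.20 for Dppa4 and -0.099 for Lin28a, each with an interval that held 0.

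Sox2 (chromosome 3, 34650405 to 34652461, plus strand), a single-exon gene for the HMG-box partner of OCT4, had the smallest SE of the 8 in each of these comparisons. It had 8852, 9412 and 9453 normalized counts in WT siGLO and 6411, 6407 and 6977 in Stag2-KO siStag1. The groups were well apart: Sox2 fell by 28.6%, a log2 change of -0.49 (SE 0.085, edgeR adjusted p = 0.000357). This call held when any 1 library was left out, with log2 values from -0.53 to -0.46.

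Sox2 in Stag2-KO siGLO was in between, at 8967, 7377 and 8054 normalized counts, and overlapped WT siGLO through 1 library. Its log2 fold change from WT siGLO was -0.18 (SE 0.085, adjusted p = 0.138), and -0.19 with an adjusted p of 0.0655 when the fit was blocked by replicate number. Without Stag2-KO siGLO replicate 1 it was -0.26 (adjusted p = 0.0521). From Stag2-KO siGLO to Stag2-KO siStag1 the log2 change was -0.30 (SE 0.085, adjusted p = 0.0603). This adjusted p was 0.228 without Stag2-KO siGLO replicate 1, 0.115 without replicate 3, 0.193 without Stag2-KO siStag1 replicate 2 and 0.201 with only the 6 libraries compared.

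The Stag1-/- clone had the highest mean of Sox2 among the 5 conditions. Its replicates had 10327, 9397 and 10392 normalized counts, and WT siStag1 had 7862, 8449 and 9160. Against WT siGLO the log2 difference was 0.12 (SE 0.085, adjusted p = 0.396) in Stag1-KO siGLO and -0.12 (SE 0.085, adjusted p = 0.995) in WT siStag1. Against Stag2-KO siGLO, Sox2 was higher in Stag1-KO siGLO by 0.30 (SE 0.085, adjusted p = 0.0210), a call narrowly lost without Stag2-KO siGLO replicate 2 (adjusted p = 0.1001). All 3 Stag1-KO siGLO libraries lay above all 3 Stag2-KO siGLO libraries.

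Pou5f1 (chromosome 17, 35506018 to 35510772, plus strand), the gene of OCT4, was the most highly counted of the 8. The WT siGLO replicates had 21491, 19660 and 18969 normalized counts and the Stag1-KO siGLO replicates 16776, 14358 and 16002. They did not overlap, and Pou5f1 fell by 21.6%, a log2 change of -0.35 (SE 0.13, edgeR adjusted p = 0.0831). The adjusted p rose to between 0.104 and 0.231 whichever 1 of the 6 libraries was left out.

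In the Stag2-/- cells Pou5f1 spread more widely. Stag2-KO siGLO had 23911, 18020 and 17794 normalized counts and Stag2-KO siStag1 19451, 15738 and 13150, with replicate 1 the highest in both. Stag2-KO siGLO did not differ detectably from WT siGLO (log2 fold change -0.0095, 95% interval -0.28 to 0.26, adjusted p = 0.967). Stag2-KO siStag1 had fallen by 0.31 from WT siGLO (SE 0.13, adjusted p = 0.0677) with 1 library inside the WT range, and the call was lost without WT siGLO replicate 1 (adjusted p = 0.178) or 2 (0.116) or Stag2-KO siStag1 replicate 2 (0.152) or 3 (0.288).

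Between Stag2-KO siStag1 and Stag2-KO siGLO the log2 difference of Pou5f1 was -0.31 (SE 0.13, adjusted p = 0.234), with adjusted p = 0.0441 when blocked by replicate number and 0.0372 without Stag2-KO siStag1 replicate 1. The log2 difference of Stag1-KO siGLO from Stag2-KO siGLO was -0.34 (SE 0.13, adjusted p = 0.0778), a call lost without Stag2-KO siGLO replicate 1, where the log2 value was -0.19 (adjusted p = 0.335), and without Stag1-KO siGLO replicate 2 or 3. In WT siStag1 the counts of 19277, 19499 and 19198 lay inside the WT siGLO range (log2 fold change -0.052, SE 0.13, adjusted p = 0.999). GENCODE M21 places exons of the antisense gene Gm19553 over 14.1% of the exon length of Pou5f1, and the strand setting of the counting is not given in the sources used here.

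Lin28a (chromosome 4, 134003330 to 134018841, minus strand) was higher than in WT siGLO in all 3 knockout conditions. WT siGLO had 8563, 7587 and 6651 normalized counts, Stag1-KO siGLO 11604, 11517 and 9249, and Stag2-KO siGLO 12407, 13919 and 10687. Both clones lay wholly above WT siGLO. The log2 fold change was 0.51 (SE 0.12, adjusted p = 0.0126), or 1.42-fold, in Stag1-KO siGLO and 0.70 (SE 0.13, adjusted p = 0.00112), or 1.62-fold, in Stag2-KO siGLO.

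With siStag1 added to the Stag2-/- cells, no further difference of Lin28a was detected. Stag2-KO siStag1 had 14025, 11999 and 12000 normalized counts, 1.67-fold above WT siGLO (log2 0.74, SE 0.13, adjusted p = 0.000269), and differed from Stag2-KO siGLO by 0.039 (95% interval -0.22 to 0.30, adjusted p = 0.919). In WT siStag1 the counts were 9155, 8610 and 7329, overlapping WT siGLO (log2 0.14, 95% interval -0.13 to 0.40, adjusted p = 0.999). Between Stag1-KO siGLO and Stag2-KO siGLO the log2 difference of Lin28a was -0.19 (SE 0.12, adjusted p = 0.302). The 3 calls against WT siGLO held when any 1 library was left out. The opposite-strand gene Gm13061 shares 5.86% of the exon length of Lin28a.

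Sall4 (chromosome 2, 168748332 to 168767943, minus strand) was higher in the Stag2-/- cells. WT siGLO had 5019, 4144 and 4263 normalized counts and Stag2-KO siGLO 6515, 5801 and 5379, without overlap. The log2 fold change was 0.40 (SE 0.12, adjusted p = 0.0336), with adjusted p up to 0.137 when a library was left out (WT siGLO replicate 2 or 3, or Stag2-KO siGLO replicate 1). Stag2-KO siStag1 had 6076, 5015 and 5331, of which 1 library fell inside the WT range, and was higher by 0.29 (SE 0.12, adjusted p = 0.0806), with adjusted p up to 0.246 when WT siGLO replicate 2 or 3 or Stag2-KO siStag1 replicate 1 or 3 was left out.

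The other conditions did not pass the test for Sall4. Stag1-KO siGLO had 5788, 4705 and 4268 normalized counts (log2 0.14, SE 0.12, adjusted p = 0.525) and WT siStag1 4492, 3755 and 3520 (log2 -0.19, SE 0.13, adjusted p = 0.977), both overlapping WT siGLO. Sall4 differed by -0.11 between Stag2-KO siStag1 and Stag2-KO siGLO (95% interval -0.37 to 0.16, adjusted p = 0.726). Between Stag1-KO siGLO and Stag2-KO siGLO it differed by -0.26 (SE 0.12, adjusted p = 0.160), and by -0.39 without Stag1-KO siGLO replicate 1 (adjusted p = 0.0526). Exons of the opposite-strand gene Gm14261 cover 9.50% of those of Sall4.

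Utf1, Dppa2 and Dppa4 were called in none of the 7 comparisons in the fit over all 15 libraries without the replicate block, and some alternatives named here called them. Utf1 (chromosome 7, 139943789 to 139945112, plus strand) had 9043, 9245 and 8317 normalized counts in WT siGLO, 9948, 8128 and 9684 in Stag1-KO siGLO and 9173, 10230 and 9217 in WT siStag1. It spread further in the Stag2-/- cells, with 11577, 7280 and 7675 in Stag2-KO siGLO and 10772, 7374 and 5890 in Stag2-KO siStag1. Replicate 1 was the high library in both. In Stag2-KO siStag1 its log2 fold change from WT siGLO was -0.15, with a 95% interval from -0.54 to 0.25 (adjusted p = 0.571). With replicate number 1 left out of every condition, an alternative added after the data were seen, it was -0.42 (adjusted p = 0.0110), and without Stag2-KO siStag1 replicate 1 alone also -0.42 (adjusted p = 0.0541). The other log2 fold changes of Utf1 from WT siGLO were 0.061 in Stag1-KO siGLO, -0.0040 in Stag2-KO siGLO and 0.11 in WT siStag1. From Stag2-KO siGLO, Utf1 differed by -0.14 in Stag2-KO siStag1 and 0.065 in Stag1-KO siGLO.

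Dppa4 and Dppa2 lie next to each other on the plus strand of chromosome 16, at 48283733 to 48294237 and 48303908 to 48319723, with 9670 bp and no annotated gene between them. Dppa4 had 2166, 2111 and 1673 normalized counts in WT siGLO, 2009, 1755 and 2161 in Stag1-KO siGLO and 2299, 2407 and 2148 in WT siStag1. In the Stag2-/- cells Dppa4 had 2730, 1414 and 1578 with siGLO and 2381, 1756 and 1613 with siStag1, again with replicate 1 above the others. For Stag2-KO siStag1 the log2 fold change of Dppa4 was -0.049 (95% interval -0.47 to 0.37, adjusted p = 0.868). With replicate number 1 left out of every condition, Dppa4 was lower in Stag2-KO siGLO than in WT siGLO (log2 -0.35, adjusted p = 0.0533) and higher in Stag1-KO siGLO than in Stag2-KO siGLO (log2 0.40, adjusted p = 0.0396). Without Stag2-KO siGLO replicate 1 alone these were -0.41 (adjusted p = 0.0700) and 0.40 (adjusted p = 0.0817), whereas over all libraries they were -0.056 (adjusted p = 0.865) and 0.050 (adjusted p = 0.891). The remaining log2 differences of Dppa4 were -0.0064 in Stag1-KO siGLO and 0.20 in WT siStag1 from WT siGLO, and 0.0070 between Stag2-KO siStag1 and Stag2-KO siGLO.

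Dppa2 followed the replicate number more than the condition. It had 2166, 1606 and 1090 normalized counts in WT siGLO, 1557, 1249 and 1151 in Stag1-KO siGLO and 1821, 1717 and 1187 in WT siStag1. Stag2-KO siGLO had 2637, 1616 and 1089 and Stag2-KO siStag1 2780, 1667 and 1631, so that in each of the 5 conditions replicate 1 was the highest and replicate 3 the lowest. The log2 fold change of Dppa2 in Stag2-KO siStag1 was 0.32 (SE 0.29, 95% interval -0.30 to 0.94, adjusted p = 0.419). From WT siGLO it was -0.30 in Stag1-KO siGLO, 0.14 in Stag2-KO siGLO and -0.042 in WT siStag1, and from Stag2-KO siGLO it was 0.19 in Stag2-KO siStag1 and -0.43 in Stag1-KO siGLO. Blocked by replicate number, the last of these was called (log2 -0.36, edgeR adjusted p = 0.0462). The block also changed the call of Dppa2 in Stag2-KO siStag1 against WT siGLO, where the numbers did not pair every library, as given further below. Of the 150-base stretches in annotated transcripts of Dppa2, 20.1% also occur in transcripts of Gm8023 or Gm9788, and 10.1% of those of Dppa4 occur in Gm14058, so the counts of both depend on how such reads were assigned.

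Tested across the 5 conditions together (edgeR quasi-likelihood F test, condition kept in the model), the replicate number was called for 6 of the 8 factors, Pou5f1, Sall4, Utf1, Dppa2, Dppa4 and Lin28a, where 30.3% of all genes tested were called. Averaged over conditions, replicate 3 minus replicate 1 was, on the log2 scale, -0.82 for Dppa2 (adjusted p = 0.000337), -0.30 for Sall4 (0.00136), -0.29 for Lin28a (0.00484), -0.35 for Dppa4 (0.0608), -0.33 for Utf1 (0.0719) and -0.25 for Pou5f1 (0.0312). The sign was the opposite for Nanog, at 0.52 (adjusted p = 0.169; 0.0726 with no expression filter, 0.0695 without WT siGLO replicate 1 and 0.0989 without WT siStag1 replicate 1), and Sox2 was at 0.056 (adjusted p = 0.371). The count was 3 of 8 without Stag2-KO siGLO replicate 1 or without Stag2-KO siStag1 replicate 1. The call of Utf1 was lost with DESeq2 (adjusted p = 0.141), with library size alone as the scaling (0.125) and in 8 of the 15 fits that left out a library, that of Dppa4 with library size alone (0.104) and in 5 of those fits, and that of Pou5f1 in 2 of them. The labels do not say what a shared replicate number stands for, and its part in the differences between conditions was examined only through the block and by leaving out replicate number 1.

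**Figure D3:**
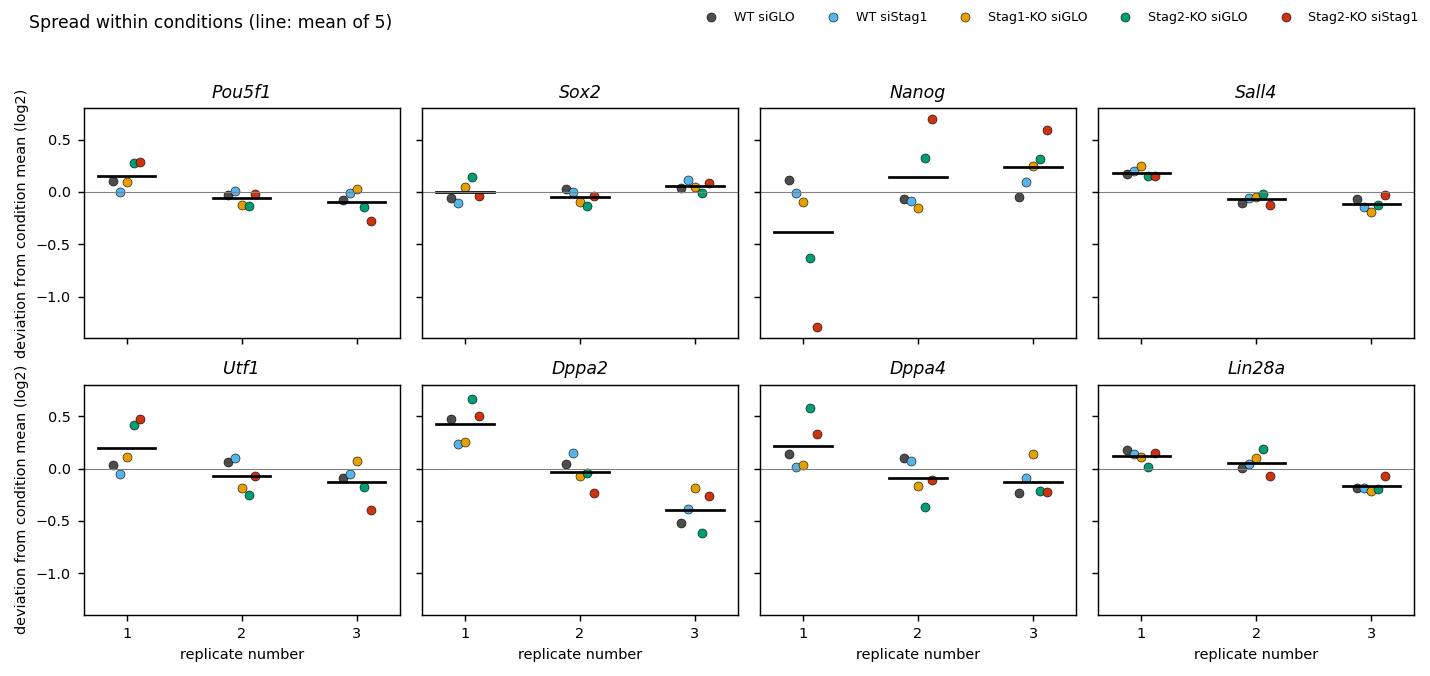
Deviation of each library from its condition's mean (y axis, log2 of normalized counts) against the replicate number (x axis), coloured by condition, with a line at the mean of the 5 conditions. Replicate numbers are names without an order. Nanog in the 2 Stag2-/- conditions is far below its mean in replicate 1, whereas Pou5f1, Utf1, Dppa2 and Dppa4 are above theirs in the same libraries.

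The variance of the log2 normalized counts over 15 libraries was divided between condition, replicate number and the rest. The condition took 87.1% of it for Sox2, 81.7% for Lin28a, 69.4% for Sall4, 64.7% for Nanog and 53.5% for Pou5f1, but 21% for Dppa2, 17.8% for Dppa4 and 17.2% for Utf1, beside a median of 55.9% over all genes tested. The replicate number took 65.8% for Dppa2, 35.4% for Dppa4, 33.3% for Utf1, 27.4% for Sall4 and 26.1% for Pou5f1. It took 14.2% for Lin28a, 12.3% for Nanog and 3.74% for Sox2, beside a median of 13.9% over all genes tested. Nanog spanned 3.25 log2 units over the libraries, the widest of the 8, and Sox2 0.70, the narrowest.

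Levels between the factors can be compared only per length of transcript, here as normalized counts per kilobase of the union of annotated exons. In WT siGLO the order was Pou5f1 (8914 ± 580, SD, n = 3), Utf1 (7228 ± 398), Sox2 (4491 ± 163), Nanog (2306 ± 163), Lin28a (1902 ± 239), Dppa4 (1194 ± 163), Sall4 (808 ± 85.7) and Dppa2 (662 ± 220). Among neighbours in this order, only the replicates of Sall4 and Dppa2 overlapped. Averaged over all libraries, 57 of 13617 genes with a length were above Pou5f1 per kilobase and 1241 were above Dppa2.

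In Stag2-KO siStag1, Nanog had 758 ± 432 per kilobase, a mean that rests in part on the low replicate 1, and Lin28a was the fourth highest at 3172 ± 293. With the longest annotated transcript as the length, the WT siGLO level of Pou5f1 became 14713 per kilobase and that of Lin28a 2169.

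The genes around these factors in the network were described as lists. Of 11 naive pluripotency genes, 10 fell and 0 rose in Stag2-KO siStag1 against WT siGLO, with a median log2 fold change of -2.0, beside -0.098 for the 8 general factors and 0.0055 for all genes tested, of which 43.9% were called. Prdm14, a repressor of differentiation genes, fell the furthest (log2 -4.01, SE 0.28, adjusted p = 5.04e-08) followed by Tfcp2l1, a naive transcription factor (log2 -3.46, SE 0.15, adjusted p = 7.3e-10). In Stag2-KO siGLO 7 naive genes fell and 2 rose (median -0.68), beside 28.3% of all genes called, and in Stag1-KO siGLO 4 fell and 1 rose (median -0.31), beside 20.0%. In WT siStag1 2 naive genes fell, beside 0.248% of all genes, or 6 when blocked by replicate number, beside 1.63%. The count of 2 became 0 without WT siStag1 replicate 1 or 2, and 1 when another single library of these 6 was left out. From Stag2-KO siGLO to Stag2-KO siStag1 all 11 fell (median -1.46, beside -0.13 for the 8 general factors), where 6.37% of all genes were called.

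Of 17 other genes of the pluripotency network, 5 rose and 3 fell in Stag2-KO siStag1 against WT siGLO, with a median of 0.0055, beside 43.9% of all genes called. Tcl1, a coactivator of AKT, was the furthest down (log2 -2.37, SE 0.17, adjusted p = 7.88e-08), followed by Dppa5a (log2 -1.05, SE 0.19, adjusted p = 0.000435). Zscan10, a zinc finger factor of stem cells, rose (log2 0.74, SE 0.17, adjusted p = 0.00370).

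**Figure D4:**
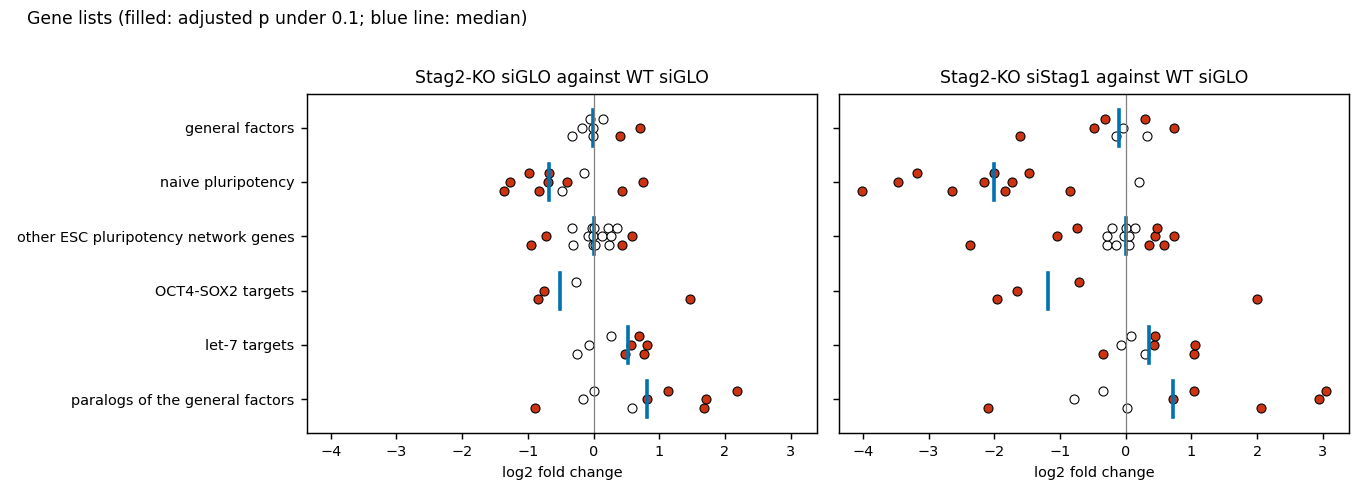
Log2 fold change from WT siGLO (x axis) of the genes of 6 lists (y axis, 1 point a gene, filled for an adjusted p under 0.1, blue line for the list's median) in Stag2-KO siGLO and Stag2-KO siStag1. The median of the general factors is -0.0067 and -0.098, whereas that of the naive genes is -0.68 and -2.0.

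Among 4 known targets of OCT4 and SOX2, 3 fell and 1 rose in Stag2-KO siStag1, beside 43.9% of all genes called. Fgf4, a growth factor of the epiblast, fell to 0.259 of its WT siGLO level (log2 -1.95, SE 0.12, adjusted p = 1.73e-08) and Spp1, the gene of osteopontin, to 0.317 (log2 -1.66, SE 0.11, adjusted p = 2.03e-08). Fbxo15 was also lower, with a log2 change of -0.72 (SE 0.13, adjusted p = 0.000507). Lefty1, an inhibitor of NODAL signalling, rose 4.0-fold (log2 2.0, SE 0.21, adjusted p = 2.34e-06). Both Fgf4 and Spp1 thus changed more than Pou5f1 or Sox2 in log2 units, a difference that was not tested.

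The let-7 targets are the group in which Lin28a has its best known role. Of 8 such genes, 5 rose and 0 fell in Stag2-KO siGLO (median 0.52), 3 rose and 2 fell in Stag1-KO siGLO (median 0.13), and 4 rose and 1 fell in Stag2-KO siStag1 (median 0.35), beside 28.3%, 20.0% and 43.9% of all genes called. The 5 called became 3 in Stag1-KO siGLO without WT siGLO replicate 3 or Stag1-KO siGLO replicate 1 or 2, and 3 in Stag2-KO siStag1 without its replicate 1. Lin28b, the paralog of Lin28a, rose 1.75-fold in Stag2-KO siGLO (log2 0.81, SE 0.11, adjusted p = 0.000155) and 2.05-fold in Stag2-KO siStag1 (log2 1.04, SE 0.11, adjusted p = 4.41e-06). Igf2bp3, an mRNA-binding protein gene, rose 1.70-fold (log2 0.77, SE 0.13, adjusted p = 0.000677) and 2.08-fold (log2 1.06, SE 0.13, adjusted p = 1.33e-05). Hmga2, a chromatin protein gene, differed in direction between the clones, at 0.69 in Stag2-KO siGLO (SE 0.21, adjusted p = 0.0311) and -0.78 in Stag1-KO siGLO (SE 0.22, adjusted p = 0.0260).

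The paralogs of the 8 factors, which share their protein families, were 9 genes tested, of which 5 rose and 1 fell in Stag2-KO siStag1 against WT siGLO (median 0.72), beside 43.9% of all genes called. Sall2 rose 8.28-fold (log2 3.05, SE 0.24, adjusted p = 1.31e-07), Sox3 rose 7.65-fold (log2 2.94, SE 0.20, adjusted p = 4.75e-08) and Pou3f1 rose 4.15-fold (log2 2.05, SE 0.25, adjusted p = 1.46e-05). Sox15 fell to 0.234 of WT siGLO (log2 -2.09, SE 0.15, adjusted p = 5.73e-08). Sox3 and Pou3f1 are also on the list of formative and primed epiblast genes, of which 7 of 9 rose and 1 fell.

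Markers of other cells that the cultures could hold were counted beside the same 43.9% of all genes called. In Stag2-KO siStag1 against WT siGLO, 7 of 7 primitive endoderm genes fell, with list sums of 4030 to 4432 normalized counts in WT siGLO and 875 to 1156 in Stag2-KO siStag1. Of 6 primitive streak and mesoderm genes tested 2 rose and 2 fell (sums 292 to 404 and 245 to 379), of 7 neural genes 3 rose (2358 to 3223 and 3921 to 6109), of 6 trophoblast genes 2 fell (1014 to 1136 and 335 to 450, with 1 of the 8 listed genes at 0 in all libraries of both groups), of 4 genes of 2-cell-like cells 0 were called (187 to 667 and 187 to 290), and of 6 fibroblast genes 1 rose (1086 to 1769 and 1350 to 1914). The neural count was 5 without WT siGLO replicate 1 or Stag2-KO siStag1 replicate 3, the 2-cell-like count 2 without WT siGLO replicate 2 and 1 without 1 Stag2-KO siStag1 replicate, whichever it was, and the fibroblast count 0 without WT siGLO replicate 1 or 2 and 2 without Stag2-KO siStag1 replicate 2. In the single knockouts, where 20.0% (Stag1-KO siGLO) and 28.3% (Stag2-KO siGLO) of all genes were called, 7 of 7 primitive endoderm genes also fell, with sums of 338 to 543 and of 731 to 1187. Of the trophoblast genes 3 of 6 rose in Stag1-KO siGLO (sums 1341 to 1585) and 3 fell in Stag2-KO siGLO (621 to 702), and of the 2-cell-like genes 4 of 4 fell in Stag1-KO siGLO (7.77 to 33.4) and 3 of 4 in Stag2-KO siGLO (115 to 234). Of the primitive streak, neural and fibroblast genes 0, 1 and 0 were called by edgeR in Stag1-KO siGLO (0, 2 and 1 when blocked by replicate number) and 3, 3 and 2 in Stag2-KO siGLO. Single libraries changed several of these counts. In Stag2-KO siGLO the 2-cell-like count became 0 without WT siGLO replicate 1 or Stag2-KO siGLO replicate 3 and 1 without Stag2-KO siGLO replicate 2, the trophoblast count 1 without WT siGLO replicate 3 or Stag2-KO siGLO replicate 2 or 3, the primitive streak count 5 without Stag2-KO siGLO replicate 1, and the fibroblast count 0 or 1 whichever of the 6 libraries was left out. In Stag1-KO siGLO the neural count became 2 without WT siGLO replicate 1 or Stag1-KO siGLO replicate 3, and the fibroblast count 1 without Stag1-KO siGLO replicate 2. In WT siStag1 edgeR called 0 genes of these 6 lists, and 1 trophoblast and 1 2-cell-like gene, both lower, when blocked by replicate number. The part of these in the levels of the 8 factors was not tested, and in bulk RNA a lower share of cells expressing a factor cannot be told apart from less RNA per cell.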

How the data were processed

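PolyA RNA was sequenced from 15 cultures. Per the labels and the study's methods, the authors used STAR and the mm10 build, and the files they deposited hold raw gene counts, taken here as they are; the counting tool, annotation and strand setting are not given in the sources used here. The 4 summary lines (unmapped, multimapping, without a feature, ambiguous; 19.8 to 23.4% of each library) were left out. In R 4.3.3 with edgeR 4.0.16, genes passing filterByExpr (minimum count 10, minimum total 15) were normalized by TMM and fitted by glmQLFit over all 15 libraries with 1 coefficient per condition. Contrasts were two-sided, with Benjamini-Hochberg adjustment over 14508 genes and a threshold of 0.1. Intervals are 95%, from the fit's t quantile; n is 3 per condition. DESeq2 1.42.0, other scalings, filters, thresholds, library subsets and leaving out each library were alternatives. No 2 libraries of a group agreed within sampling noise (chi-square per degree of freedom 4.52 to 25.2).

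Replicate numbers come from the labels. Deviations of same-numbered libraries from their condition means correlated at over 0.1 in every pair for 5 comparisons (lowest 0.129 to 0.300), so blocked values stand beside a result there only where they change the call or move a count by over 1.5 times; for Stag2-KO siStag1 against WT siGLO the lowest was 0.045. The 8 factors and all lists were chosen with earlier results of these data known. The rule for named genes took all 8 factors in every comparison, and from each list at most 4 called genes per comparison with the largest change and a mean normalized count of at least 50. Gene positions and lengths are from GENCODE M21 (mm10). The lists were naive pluripotency, other network genes, OCT4-SOX2 targets, let-7 targets, paralogs, formative and primed epiblast, primitive endoderm, primitive streak and mesoderm, neural, trophoblast, 2-cell-like and feeder fibroblasts.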

Additional observations from a re-analysis of the deposited data

Results flagged for a closer look

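None of the 8 factors showed a called difference between the siStag1 effect in Stag2-/- and in WT cells. As given above, the measured fall of Stag1 with siStag1 was smaller in Stag2-/- than in WT cells. Of 11 naive genes 5 were called (edgeR quasi-likelihood interaction test, two-sided), beside 0.159% of all genes, and 2 to 8 with single libraries left out: 2 or 3 without WT siGLO replicate 2 or 3, 1 WT siStag1 replicate, whichever it was, or Stag2-KO siGLO replicate 2, and 8 without Stag2-KO siStag1 replicate 1. The 4 named genes had these values. The siStag1 effect in Stag2-/- minus that in WT was -1.76 on the log2 scale for Tfcp2l1 (SE 0.19, adjusted p = 0.000703), -1.49 for Esrrb (SE 0.20, adjusted p = 0.00398), -1.11 for Klf4 (SE 0.22, adjusted p = 0.0676) and -1.02 for Tbx3 (SE 0.18, adjusted p = 0.0444).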

How the results depend on the processing

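Of the 888 alternative values of the 8 factors' log2 fold changes, 55 changed sign, none of them for a called factor. The 888 include those of the stricter threshold, which repeat the main fold changes and could not change sign. The counts of factors called moved by over 1.5 times as follows. At an adjusted p under 0.05 they were 1 for Stag1-KO siGLO against WT siGLO, 3 for Stag2-KO siStag1 against WT siGLO, 0 for Stag2-KO siStag1 against Stag2-KO siGLO and 1 for Stag1-KO siGLO against Stag2-KO siGLO. Beside them 2044, 5208, 548 and 2628 of all 14508 genes were called, in this order. With only the libraries compared they were 1 for WT siStag1 (Nanog), 0 for Stag2-KO siStag1 against Stag2-KO siGLO and 1 between the clones. Of all genes, these fits called 126 of 13869, 224 of 13916 and 2406 of 13782, in this order. With the replicate block, which pairs libraries by number, the count between the clones was 5, beside 37.3% of all genes. For Stag2-KO siStag1 against WT siGLO, where the numbers did not pair every library, the block added Dppa2 (adjusted p = 0.0431), beside 53.7% of all genes. The block changed no other call of a factor beyond those given in the report. For the difference between the siStag1 effects, where the numbers also did not pair every library, the block called 10 of 11 naive genes instead of 5, and 0.951% of all genes instead of 0.159%. Leaving out each library in turn gave 1 in all 6 fits for Stag1-KO siGLO, where Pou5f1 was lost, 1 to 3 for Stag2-KO siGLO, 3 to 5 for Stag2-KO siStag1, 0 to 3 against Stag2-KO siGLO, 1 to 3 between the clones and 3 to 7 for the replicate number. Of all 14674 to 14734 genes tested, the comparisons of conditions called 1915 to 2748, 2524 to 3985, 5166 to 6218, 416 to 1484 and 2539 to 3522, in this order. An alternative added after the data were seen left replicate number 1 out of every condition. This gave 4 for Stag2-KO siGLO (Sox2, Dppa4, Sall4 and Lin28a), beside 5028 of 14553 genes. The main fit called 2 there, beside 4110 of 14508 genes. For the replicate number the same alternative gave 2 (Dppa2 and Lin28a). The cause of these shifts was not tested, other than fewer libraries or a stricter threshold in the alternative itself.

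The main values that changed sign were at most 0.23 in size on the log2 scale, and none was called. Dppa4 in Stag1-KO siGLO against WT siGLO was 0.0011 with DESeq2, 0.011 with no expression filter, 0.0043 with the replicate block, 0.043 without replicate number 1, and -0.12 to 0.072 with single libraries left out. Dppa4 in Stag2-KO siStag1 against Stag2-KO siGLO was -0.0081 with no expression filter, -0.0013 with only these libraries and -0.18 to 0.36 with single libraries left out. Without replicate number 1, Dppa2 was -0.0097 in Stag2-KO siGLO and 0.11 in WT siStag1, and Lin28a -0.039 in Stag2-KO siStag1 against Stag2-KO siGLO. Nanog between the clones was 0.0028 with the replicate block and -0.30 to 0.10 with single libraries left out. The remaining ranges come from single libraries left out. Against WT siGLO, Stag2-KO siGLO gave -0.16 to 0.065 for Pou5f1, -0.25 to 0.12 for Utf1, -0.26 to 0.40 for Dppa2 and -0.41 to 0.12 for Dppa4; WT siStag1 gave -0.091 to 0.00067 for Pou5f1 and -0.26 to 0.22 for Dppa2; Stag2-KO siStag1 gave -0.42 to 0.034 for Utf1 and -0.24 to 0.062 for Dppa4. Against Stag2-KO siGLO, Stag2-KO siStag1 gave -0.42 to 0.099 for Utf1, -0.11 to 0.58 for Dppa2 and -0.056 to 0.13 for Lin28a. Between the clones Utf1 gave -0.056 to 0.31 and Dppa4 -0.12 to 0.40. The difference between the siStag1 effects gave -0.0085 to 0.19 for Sall4, -0.070 to 0.62 for Dppa2 and -0.38 to 0.15 for Dppa4. No factor was near the floor of 3 counts in any library.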

Other observations

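Some pairs of the 8 factors deviated together within conditions. Over the 15 deviations from condition means, which share libraries and, by label, replicate numbers, the Pearson correlation of log2 normalized counts was 0.97 for Pou5f1 and Utf1, 0.91 for Utf1 and Dppa4 and 0.89 for Pou5f1 and Dppa4. For Nanog the value was -0.77 with Pou5f1, -0.83 with Utf1 and -0.69 with Dppa4, with its 2 lowest deviations in replicate 1 of the Stag2-/- conditions, whereas in WT siGLO Nanog and Pou5f1 deviated the same way in every replicate. The library lowest in Nanog, Stag2-KO siStag1 replicate 1, was the highest of its condition in Pou5f1, Utf1, Dppa2, Dppa4, Sall4 and Lin28a. Sox2 was near 0 with Nanog, at -0.075. These values are descriptions over libraries that are not independent.

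The genes whose log2 normalized counts followed each factor most closely over all 15 libraries, among the 11526 other genes averaging 50 or more normalized counts, were Khdc3 (Pearson r 0.95) and Lancl1 (0.94) for Sox2, Ly6g6e (0.93) and Hscb (0.92) for Nanog, Vegfc (0.92) and Sod1 (0.92) for Pou5f1, and Ipo4 (0.95) and Ints5 (0.94) for Sall4. For Utf1 they were Trim6 (0.95) and Nit2 (0.94), for Dppa2 Ddx3x (0.93) and Rex2 (0.92), for Dppa4 Ddhd2 (0.90) and Gtse1 (0.89), and for Lin28a Rbm45 (0.97) and Pgrmc1 (0.95). Khdc3, a maternal-effect gene also active in mESCs, spanned a wider range than Sox2, with mean normalized counts of 754 in WT siGLO, 1325 in Stag1-KO siGLO, 344 in Stag2-KO siGLO and 157 in Stag2-KO siStag1. Ly6g6e went from 173 in WT siGLO to 30.6 in Stag2-KO siStag1.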
